A study of Ericerus pela with 8 samples.

Results

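Of the 147509 unigenes that were read at least once in the wax scale Ericerus pela, 4 whose best protein match was an insect heat shock protein 70 (Hsp70) are described here. A unigene is an assembled stretch of transcript, and the 4 were taken by identifier as Unigene45254_FOB, Unigene134666_FOB, Unigene112925_FOB and Unigene122371_FOB. They were selected with their levels in these libraries known, 3 of them being at least 4-fold apart between male and female second-instar larvae and the other one between male and female adults. Their levels are therefore given as a description, with no test. The unigenes may be pieces of 1 gene, so their summed reads are given as well.

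Hsp70 proteins are ATP-driven chaperones that bind exposed stretches of unfolded proteins, together with J-domain proteins that deliver the client and start ATP hydrolysis and exchange factors that release the nucleotide. Insects carry heat-inducible Hsp70 genes, whose transcription is switched on by heat shock factor when proteins unfold, and constitutive cognates (Hsc70) that fold new proteins in unstressed cells. Separate Hsp70 proteins work in mitochondria and in the endoplasmic reticulum. Larvae of E. pela feed fixed to their host tree, second-instar males secrete the white wax for which the insect is reared, and adult males are winged and short-lived while adult females stay fixed to the twig and swell with eggs.

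RNA was sequenced from 8 groups with 1 library each. The male groups were first-instar larvae, second-instar larvae and adults, and the female groups were first-instar larvae, second-instar larvae, early-stage adults, middle-stage adults and later-stage adults. The labels name no treatment, number of insects per library, rearing temperature or body part. The largest library held 1.58 times as many uniquely assigned reads as the smallest, and a level of 1 CPM (1 read in a library scaled to 1e+06 reads) was worth 1.46 to 2.30 reads. With 1 library per group no difference has a replicate check, and the 95% intervals below cover counting error only. In such bulk libraries more cells of a type and more RNA per cell cannot be told apart. The sex labels were checked on a unigene matched to the male isoform of doublesex (Unigene155621_FOB), a regulator of sexual differentiation in insects. It had 16, 42 and 22 reads in male first-instar larvae, second-instar larvae and adults, against 0, 2, 4, 0 and 0 reads in female first-instar larvae, second-instar larvae and early-, middle- and later-stage adults.

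All 4 unigenes were read in all 8 libraries. Unigene45254_FOB is 157 bases long, was matched to heat shock protein 70 of the whitefly Bemisia tabaci, and had the most reads, 2028 over the 8 libraries. Unigene134666_FOB is 364 bases long, was matched to the bollworm Helicoverpa armigera and had 1446 reads. Unigene112925_FOB, of 263 bases, was matched to a predicted Hsp70-like protein of the pea aphid Acyrthosiphon pisum and had 987 reads. Unigene122371_FOB, of 295 bases, was matched to the diamondback moth Plutella xylostella and had 636 reads. The median unigene was 241 bases long, and since an Hsp70 coding sequence is far longer than any of the 4, each covers a piece of one. Reads covered 82.2% to 98.7% of Unigene45254_FOB, 56.0% to 94.5% of Unigene134666_FOB, 73.8% to 99.2% of Unigene112925_FOB and 58.0% to 99.7% of Unigene122371_FOB across libraries. The deposited tables give Unigene45254_FOB, Unigene112925_FOB and Unigene122371_FOB the gene ontology process response to stimulus, and Unigene134666_FOB no process. Neither the sequences nor the positions of the unigenes are used here.

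The 4 unigenes were most abundant in male second-instar larvae and male adults, and Unigene45254_FOB differed from the other members in which of those libraries was higher. Unigene45254_FOB had 44, 1565 and 162 reads in male first-instar larvae, second-instar larvae and adults, against 53, 64, 47, 21 and 72 reads in female first-instar larvae, second-instar larvae and early-, middle- and later-stage adults. In CPM these were 19.1, 717 and 88.0 in males, against 24.1, 33.4, 23.7, 14.4 and 38.6 in females. The male second-instar library stood far above the rest, the male adult library came second, and male first-instar larvae lay within the female range. Per length, at 4568 RPKM (CPM per kilobase of unigene), it ranked 1 among the 106752 unigenes read in male second-instar larvae. By the same measure it ranked 519 in male adults, 1191 in female second-instar larvae and 7966 in female middle-stage adults.

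Unigene134666_FOB had 20, 643 and 586 reads in male first-instar larvae, second-instar larvae and adults, against 47, 64, 56, 13 and 17 reads in female first-instar larvae, second-instar larvae and early-, middle- and later-stage adults. In CPM the levels were 8.68, 295 and 318 in males, against 21.4, 33.4, 28.2, 8.90 and 9.12 in females. Here the 2 later male libraries stood together above all others, and male first-instar larvae, the lowest of the 8, lay within counting error of middle- and later-stage females. Its RPKM was 810 in male second-instar larvae and 875 in male adults, and it ranked 27 and 231 among the unigenes of those libraries.

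Unigene112925_FOB had 22, 387 and 386 reads in the 3 male libraries in order of stage, against 36, 65, 48, 15 and 28 reads in the 5 female libraries in order of stage. In CPM these were 9.55, 177 and 210 in males, against 16.4, 33.9, 24.2, 10.3 and 15.0 in females. The pattern was that of Unigene134666_FOB, with both later male libraries high and male first-instar larvae among the lowest.

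Unigene122371_FOB had 26, 187 and 289 reads in males in order of stage, against 20, 56, 35, 10 and 13 reads in females in order of stage. Its CPM was 11.3, 85.7 and 157 in males, against 9.09, 29.2, 17.6, 6.85 and 6.97 in females. Male adults were highest, male second-instar larvae came second, and female second-instar larvae had the highest level among the remaining libraries. Summed over the 4 unigenes, reads were 112, 2782 and 1423 in males, against 156, 249, 186, 59 and 130 in females. They made up 0.1275% of all reads in male second-instar larvae and 0.0773% in male adults.

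**Figure D1:**
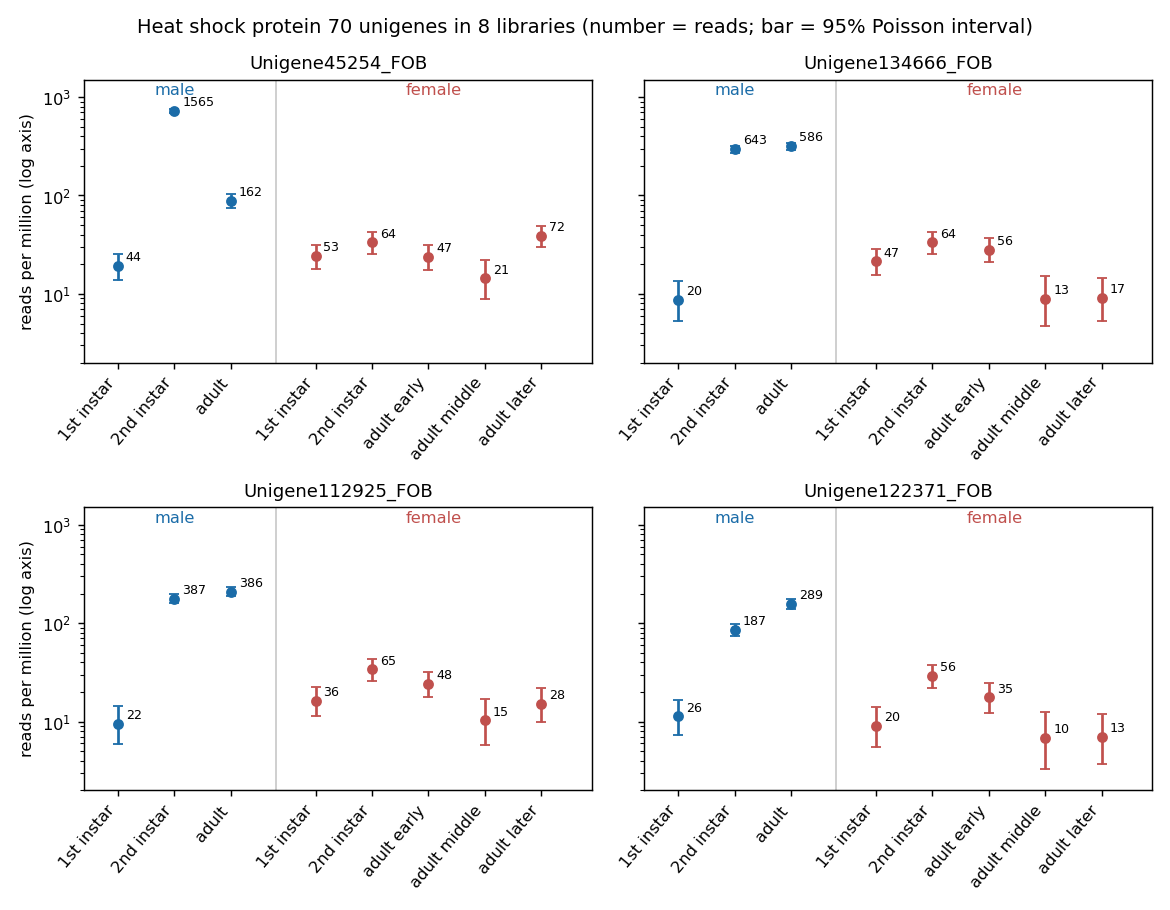
CPM (log axis) of each of the 4 Hsp70 unigenes in the 8 libraries, males in blue on the left and females in red on the right of each panel; the number beside a point is its read count and the bar its exact 95% Poisson interval. Male second-instar larvae and male adults stand above all other libraries in every panel, and Unigene45254_FOB alone has a much higher point in male second-instar larvae (1565 reads) than in male adults (162 reads).

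Ordered by level, few neighbouring libraries differed beyond counting error. For Unigene45254_FOB, male second-instar larvae were 8.15-fold above male adults and male adults 2.28-fold above female later-stage adults, and the interval of every further neighbouring ratio held 1. For Unigene134666_FOB, male adults and male second-instar larvae could not be ordered, and below them only female second-instar larvae under male second-instar larvae and female later-stage adults under female first-instar larvae (2.34-fold) were set apart. For Unigene112925_FOB, male adults lay 1.18-fold above male second-instar larvae (interval 1.02 to 1.37), which in turn lay above female second-instar larvae, and no lower neighbours were set apart. Unigene122371_FOB had 3 such gaps, of male adults over male second-instar larvae (1.83-fold), of male over female second-instar larvae (2.93-fold) and of female second-instar larvae over female early-stage adults (1.66-fold).

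In first-instar larvae the 4 unigenes showed no 4-fold difference between the sexes, and Unigene134666_FOB was lower in males. A unigene counted as 4-fold apart when its CPM, with 1 added on each side, differed at least 4-fold and 1 of the libraries held at least 20 reads. None of the 4 did, while 0.766% of the 36284 unigenes measured passed this rule on the male side and 2.79% on the female side. The male to female ratio was 0.793 (95% interval 0.519 to 1.21) for Unigene45254_FOB, 0.406 (0.228 to 0.700) for Unigene134666_FOB, 0.584 (0.327 to 1.02) for Unigene112925_FOB and 1.24 (0.667 to 2.35) for Unigene122371_FOB. Their summed reads were 0.686 times as high in males as in females (0.533 to 0.880). Without Unigene134666_FOB the summed ratio was 0.806 and its interval, 0.604 to 1.07, held 1.

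In second-instar larvae all 4 unigenes were higher in males, by amounts that differed between them. Unigene45254_FOB was 21.5-fold higher in males than in females (16.7 to 28.0), Unigene134666_FOB 8.83-fold (6.82 to 11.6), Unigene112925_FOB 5.23-fold (4.02 to 6.91) and Unigene122371_FOB 2.93-fold (2.17 to 4.03). The first 3 passed the 4-fold rule and the last did not, its value on the scale of the rule being 1.52 (log2). Of all 34182 unigenes measured, 2.64% passed it in the male direction and 3.67% in the female direction. Nothing is read from the members' count because they were chosen with these levels known. Their summed reads were 9.82-fold higher in males (8.62 to 11.2) and 5.78-fold higher without Unigene45254_FOB.

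In adults 3 of the 4 unigenes were at least 4-fold higher in males than in each female stage, and Unigene45254_FOB was the exception. All 3 comparisons share the male adult library. Across unigenes measured in all 3, 9.34% passed in the male direction and 7.8% in the female direction, and singly 9.31%, 16.4% and 16.9% passed it against early-, middle- and later-stage females. Unigene134666_FOB was 11.3-fold (8.58 to 15.1), 35.8-fold (20.8 to 67.6) and 34.9-fold (21.6 to 60.4) higher in male adults than in early-, middle- and later-stage females. In the same order, Unigene112925_FOB was 8.68-fold (6.42 to 12.0), 20.4-fold (12.2 to 36.8) and 14.0-fold (9.51 to 21.3) higher. Unigene122371_FOB was 8.91-fold (6.26 to 13.1), 22.9-fold (12.3 to 48.3) and 22.5-fold (13.0 to 42.8) higher. Against the middle and later stages these unigenes had 10 to 28 female reads, which sets the width of the intervals. Unigene45254_FOB was 3.72-fold (2.67 to 5.26), 6.12-fold (3.87 to 10.2) and 2.28-fold (1.72 to 3.05) higher in male adults than in those stages, and passed the rule against middle-stage females only. The scaling of the male adult library moved these values: Unigene45254_FOB was 4.76-fold higher than in early-stage females with TMM (trimmed mean of M-values) scaling and 5.30-fold with median-of-ratios size factors, and passed the rule under both. With size factors Unigene134666_FOB was 16.1-fold and Unigene112925_FOB 12.4-fold higher. All unigenes together had a median log2 ratio of -0.52 against early-stage females, which was -0.19 with TMM scaling and -0.04 with size factors.

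Passing the rule in the male direction both at the second instar and against all 3 adult female stages was uncommon. Of 22607 unigenes measured in all 4 comparisons, 34 did so (0.15%), and Unigene134666_FOB and Unigene112925_FOB were 2 of the 34. Since the members were selected from these contrasts, the count places them among other unigenes and is no support for them.

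Along male development the 4 unigenes separated by stage. In male second-instar over male first-instar larvae, all 4 were at least 4-fold higher, where 3.95% of the 36667 unigenes measured were, and 4.26% were at least 4-fold lower. The ratio was 37.5 (27.8 to 51.9) for Unigene45254_FOB, 33.9 (21.8 to 55.9) for Unigene134666_FOB, 18.6 (12.1 to 30.0) for Unigene112925_FOB and 7.59 (5.02 to 11.9) for Unigene122371_FOB. This rise was not particular to the members. Of 14 measured other unigenes with Hsp70 names, described below, 5 were at least 4-fold higher and 0 lower (median log2 ratio 1.45). All 3 measured small heat shock proteins were higher as well (median 3.94). Over the chaperone lists together, small heat shock proteins included, 5 of 151 were higher and 1 lower (median -0.14). In male adults over male second-instar larvae, Unigene45254_FOB was 0.123 times as high (0.104 to 0.144) and the only member past the rule, on the lower side with 17.4% of the 35017 unigenes measured, while 10.1% were on the higher side. The other members had ratios of 1.08 (0.964 to 1.21) for Unigene134666_FOB, 1.18 (1.02 to 1.37) for Unigene112925_FOB and 1.83 (1.52 to 2.21) for Unigene122371_FOB. With median-of-ratios size factors the 4 values were 0.186, 1.64, 1.80 and 2.78, so Unigene45254_FOB was lower and the other members were not lower in male adults under either scaling.

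In females no member passed the 4-fold rule at any of the 4 steps. Over second-instar against first-instar larvae the background was 1.16% higher and 1.43% lower, and over early-stage adults against second-instar larvae it was 1.23% higher and 0.119% lower. For middle-stage over early-stage adults it was 2.77% and 7.6%, and for later-stage over middle-stage adults 3.89% and 4.47%. Below the rule, some smaller differences exceeded counting error. In female second-instar over first-instar larvae the ratio was 3.21 for Unigene122371_FOB (1.90 to 5.65) and 2.07 for Unigene112925_FOB (1.36 to 3.21). It was 1.56 for Unigene134666_FOB (1.06 to 2.33) and 1.39 for Unigene45254_FOB, where the interval (0.948 to 2.03) held 1. Middle-stage females had 0.316 times the early-stage level of Unigene134666_FOB (0.158 to 0.585), 0.425 times that of Unigene112925_FOB (0.221 to 0.772) and 0.389 times that of Unigene122371_FOB (0.172 to 0.802). In later-stage over middle-stage females, Unigene45254_FOB had a ratio of 2.69 (1.63 to 4.60) and Unigene112925_FOB one of 1.46 (0.755 to 2.95). Unigene134666_FOB (0.469 to 2.29) and Unigene122371_FOB (0.413 to 2.59) had ratios of 1.02 on fewer than 20 reads in either library, and the 4 intervals overlap.

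The make-up of the summed reads changed with these levels. Unigene45254_FOB made up 56.3% of the members' reads in male second-instar larvae (95% Clopper-Pearson interval 54.4 to 58.1) and 55.4% in female later-stage adults (46.4 to 64.1). It made up 11.4% in male adults (9.78 to 13.2), the lowest share of the 8 libraries. In the other 5 libraries its share was 25.3% to 39.3%. Whether members kept a fixed proportion to each other was followed as the RPKM ratio of each pair over the libraries. Unigene112925_FOB over Unigene122371_FOB ran between 0.949 and 2.42, a 2.55-fold range, and Unigene134666_FOB over Unigene112925_FOB between 0.439 and 1.20, a 2.74-fold range. Against these, Unigene45254_FOB over Unigene134666_FOB ran between 0.641 in male adults and 9.82 in female later-stage adults, a 15.3-fold range. Which of the 4 come from the same gene was not tested.

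**Figure D2:**
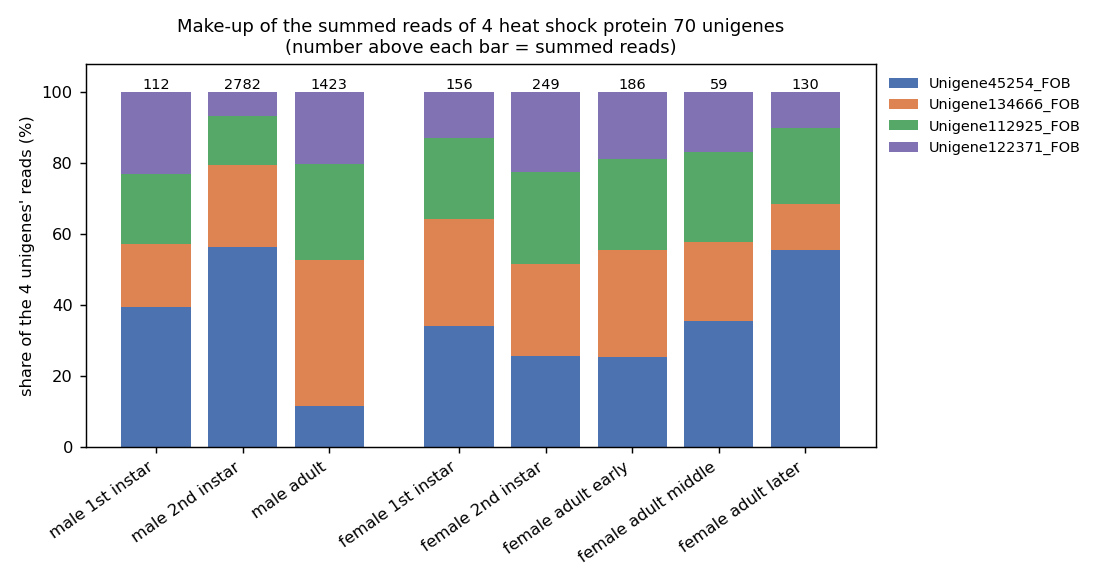
Share of each Hsp70 unigene in the summed reads of the 4 (percent, stacked bars) for 3 male libraries on the left and 5 female libraries on the right; the number above a bar is the summed read count. Unigene45254_FOB fills 56.3% of the bar of male second-instar larvae and 11.4% of that of male adults, where Unigene134666_FOB takes 41.2%.

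As a description over the 8 libraries, which share library depth between unigenes and in which male second-instar larvae and male adults carry most of the spread, log2 levels of Unigene134666_FOB and Unigene112925_FOB had a Pearson r of 0.990 and a Spearman rho of 1. Unigene122371_FOB had r of 0.965 and 0.969 with them (rho 0.857 each). Unigene45254_FOB had r of 0.830, 0.844 and 0.748 with Unigene134666_FOB, Unigene112925_FOB and Unigene122371_FOB, and rho of 0.786, 0.786 and 0.667.

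A search of the match descriptions for Hsp70 names found 40 more unigenes, 23 with a best match in an arthropod and 17 counted as outside the arthropods. The latter include Unigene78414_FOB, whose match names no organism. Of the 40, 17 reached 20 reads in either second-instar library. None of the 17 was 4-fold apart between the sexes there, and since 2.64% of all unigenes passed the rule in the male and 3.67% in the female direction, nothing is read from that count. The members had a median log2 ratio of 2.73, these 17 one of 0.50 and all unigenes one of 0.05. By description, 6 of the 17 were Hsp70 with an arthropod match (log2 ratios of -1.11 to 1.38, median 0.65), 3 were Hsp70 matched outside the arthropods (-1.70 to -0.59) and 3 were of the Hsp110 class (1.26 to 1.49). Of the other 5, 1 was a mitochondrial Hsp70 (0.70) and 4 were partner proteins (-0.36 to 1.17), which bind Hsp70 without belonging to its family and are counted again among the co-chaperones below. The most-read unigene with a cytosolic Hsp70 match and an arthropod best match was Unigene109375_FOB, described as Hsp70 B2. It had 88, 160 and 195 reads in males in order of stage, against 109, 177, 177, 59 and 32 reads in females in order of stage, and a second-instar ratio of 0.794 (0.637 to 0.989).

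Of the 6 measured Hsp70 unigenes with an arthropod match, 5 had a higher level in male adults than in male second-instar larvae and Unigene58076_FOB a lower one. Those described next, other than Unigene138045_FOB, were chosen after their values were seen. Unigene58076_FOB, matched to the body louse, had 1, 12 and 0 reads in males, against 8, 25, 53, 1 and 1 reads in females, and its second-instar ratio was 0.422 (0.193 to 0.871). Its highest level was in female early-stage adults. Unigene129872_FOB, whose match record is the same as that of Unigene134666_FOB, had 23, 117 and 209 reads in males, against 34, 58, 59, 14 and 24 reads in females, and was 1.77-fold higher in male than in female second-instar larvae (1.28 to 2.47). Unigene40785_FOB, with the match record of Unigene122371_FOB, had 11, 80 and 162 reads in males, against 22, 49, 34, 14 and 19 in females, with a second-instar ratio of 1.43 (0.993 to 2.09). Unigene138045_FOB, matched to a 70 kDa heat shock protein of the greenhouse whitefly, had 7, 95 and 138 reads in males, against 16, 31, 17, 4 and 22 in females, with a second-instar ratio of 2.69 (1.78 to 4.18). The last 3 had their highest level in male adults. It was 2.12, 2.40 and 1.72 times that of male second-instar larvae for Unigene129872_FOB, Unigene40785_FOB and Unigene138045_FOB. Unigene52343_FOB and Unigene109375_FOB were highest there too, the latter at 106 CPM beside 92.3 in female second-instar larvae. So were the members other than Unigene45254_FOB, with Unigene134666_FOB within counting error of male second-instar larvae. Unigene40785_FOB was 5.14-, 9.18- and 8.64-fold higher in male adults than in early-, middle- and later-stage females, and Unigene138045_FOB 8.76-, 27.4- and 6.35-fold. They were the only 2 of the 12 listed unigenes measured in all adult comparisons that passed the rule in the male direction each time. Over all unigenes 9.34% did so. Unigene122371_FOB passed each time too, and the 2 are not among the members. Unigene129872_FOB and Unigene52343_FOB missed the rule against early-stage females only (log2 1.90 and 1.87). Against that stage, 2 listed unigenes were past the rule in the male direction by header total and 4 with TMM scaling or size factors. Summed over the 12 other Hsp70 unigenes with arthropod matches, reads were 135, 509 and 771 in males, against 197, 362, 365, 115 and 106 in females.

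The chaperones of the Hsp110 class, relatives of Hsp70 that serve it as exchange factors, were highest in male second-instar larvae and lowest in male adults. The 3 measured unigenes, all matched to Hsc70Cb, the fly member of that class, had log2 ratios of 1.26 to 1.49 in male over female second-instar larvae. Unigene84384_FOB, the most-read of them, had 93, 357 and 28 reads in males, against 98, 117, 97, 91 and 131 reads in females. It was 2.68-fold higher in male than in female second-instar larvae (2.17 to 3.33), and 0.312, 0.244 and 0.216 times as high in male adults as in early-, middle- and later-stage females. Mitochondrial Hsp70, which pulls proteins into the matrix, was read from Unigene91592_FOB, best matched to an annelid, with 278, 389 and 30 reads in males, against 151, 209, 186, 199 and 225 reads in females. It was 1.64-fold higher in male second-instar larvae and 0.174, 0.120 and 0.135 times as high in male adults as in the 3 female stages. Like Unigene45254_FOB, both were lower in male adults than in male second-instar larvae, but unlike every member both were lower in male than in female adults. Unigene156463_FOB, an Hsp70-interacting protein, had 238, 184 and 65 reads in males, against 234, 202, 174, 159 and 158 in females.

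Another 12 unigenes had a plain Hsp70 description and a best match outside the arthropods, a count that leaves out the mitochondrial, Hsp110 and partner matches. The most-read of the 12, Unigene156715_FOB, was matched to the protozoan Theileria ovis and had 19, 144 and 8 reads in males, against 119, 192, 358, 17 and 22 reads in females. Its ratio in male over female larvae was 0.153 at the first instar and 0.659 at the second (0.527 to 0.822). Summed over the 12, reads were 30, 180 and 11 in males, against 190, 300, 494, 22 and 23 in females. This sum was lower in male than in female second-instar larvae and adults, where the members were higher. Unigene58076_FOB, with its insect match, was likewise lower in males at the second instar and against early-stage females. Which organism these reads came from was not tested.

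**Figure D3:**
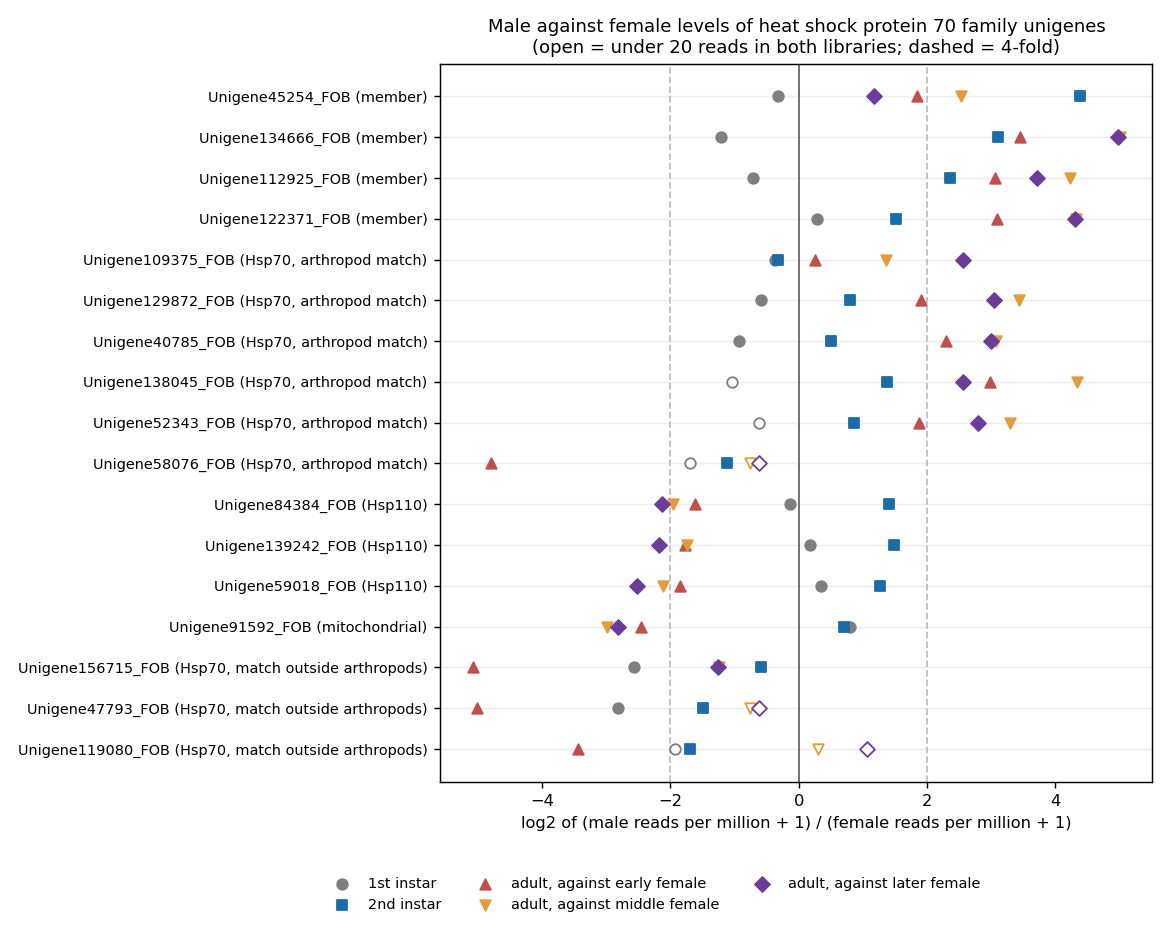
Log2 ratio of male over female levels (CPM with 1 added on each side) of the 4 Hsp70 unigenes, at the top, and of 13 other Hsp70-family unigenes, for 5 sex comparisons by marker; open markers have under 20 reads in both libraries and dashed lines mark 4-fold. At the second instar (blue squares) the first 3 members lie beyond the 4-fold line and no other unigene does. In adults the Hsp110 and mitochondrial unigenes lie on the female side and the members on the male side. The Hsp70 unigenes with an arthropod match also lie on the male side in adults, except Unigene58076_FOB.

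Among 10 lists of other chaperones and stress proteins, the 3 measured small heat shock proteins were all past the 4-fold rule at the second instar, at log2 ratios with a median of 5.78 and a highest value of 6.05, each above the highest member (4.38). Of 214 unigenes on the lists, 150 were measured at the second instar, 4 were at least 4-fold higher in males and none at least 4-fold lower. The count higher in males is near the background of 2.64%, beside 3.67% in the female direction. The lists together had a median log2 ratio of -0.12 beside 0.05 for all unigenes. Small heat shock proteins hold unfolding proteins without using ATP until Hsp70 can take them over. Unigene142638_FOB of that list had 92, 2581 and 75 reads in males, against 41, 45, 49, 44 and 131 reads in females. At the second instar it was 50.4-fold higher in males (37.6 to 69.3). The other two measured, Unigene77751_FOB with 294 reads in males against 2 in females, a ratio of 129 (35.4 to 1072), and Unigene86687_FOB with 243 against 2 reads, a ratio of 107 (29.2 to 887), were also past the rule. In male adults the 3 had 75, 24 and 22 reads, so these followed Unigene45254_FOB in being highest in male second-instar larvae. The fourth unigene past the rule was Unigene36304_FOB, a chaperonin subunit matched to the chicken, with 36 reads in male against 0 in female second-instar larvae.

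Of the partners of Hsp70, none of 24 J-domain unigenes (median log2 ratio 0.37) and none of 10 co-chaperone unigenes (0.04) was 4-fold apart at the second instar. Over all unigenes 2.64% passed the rule in the male and 3.67% in the female direction. Nothing is therefore read from these counts or from those of the lists that follow. The J-domain unigene with most reads, Unigene144335_FOB, had a ratio of 1.19 in male over female second-instar larvae, and Unigene119082_FOB one of 0.646. GrpE, the exchange factor of mitochondrial Hsp70 (Unigene142293_FOB), had a ratio of 1.33 (1.08 to 1.64). The heat shock factor, the activator of the heat-inducible genes, was read from Unigene130118_FOB, with 22, 27 and 5 reads in males, against 27, 30, 23, 12 and 25 reads in females, a second-instar ratio of 0.791 (0.452 to 1.38). The list for Hsp90, the chaperone that receives clients from Hsp70, gave 7 measured unigenes, none past the rule (median -0.07). It takes in Hsp90 partners, so this is not a median of Hsp90 alone. Unigene124496_FOB, Unigene45787_FOB, Unigene48707_FOB and Unigene69829_FOB are on this list and counted among the co-chaperones as well. Of the Hsp90 list, Unigene153925_FOB, a match to the Hsp90 ATPase activator, was 3.07-fold higher in male second-instar larvae (2.65 to 3.57). Endoplasmin, the Hsp90 of the endoplasmic reticulum (Unigene145611_FOB), was 1.83-fold higher (1.59 to 2.10). Chaperonins, which fold proteins in a closed chamber, gave 34 measured unigenes with a median of -0.39 and the 1 past the rule named above, and the most-read of them had ratios of 0.593 (Unigene127669_FOB) and 0.639 (Unigene97573_FOB). The 51 proteasome and polyubiquitin unigenes had a median of -0.29 and the 27 antioxidant unigenes one of 0.11, with none past the rule in either list. The most-read unigenes of these lists had ratios of 0.816 (Unigene154014_FOB), 0.812 (Unigene143646_FOB), 0.986 (Unigene155709_FOB) and 1.01 (Unigene146393_FOB). The single measured unigene of the list for organelle Hsp70, Unigene44061_FOB, matched to a mitochondrial stress-70 protein of the pig, was 2.81-fold higher in males (1.86 to 4.35). The 2 unigenes that a separate search for Hsp110 names found were not measured.

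**Figure D4:**
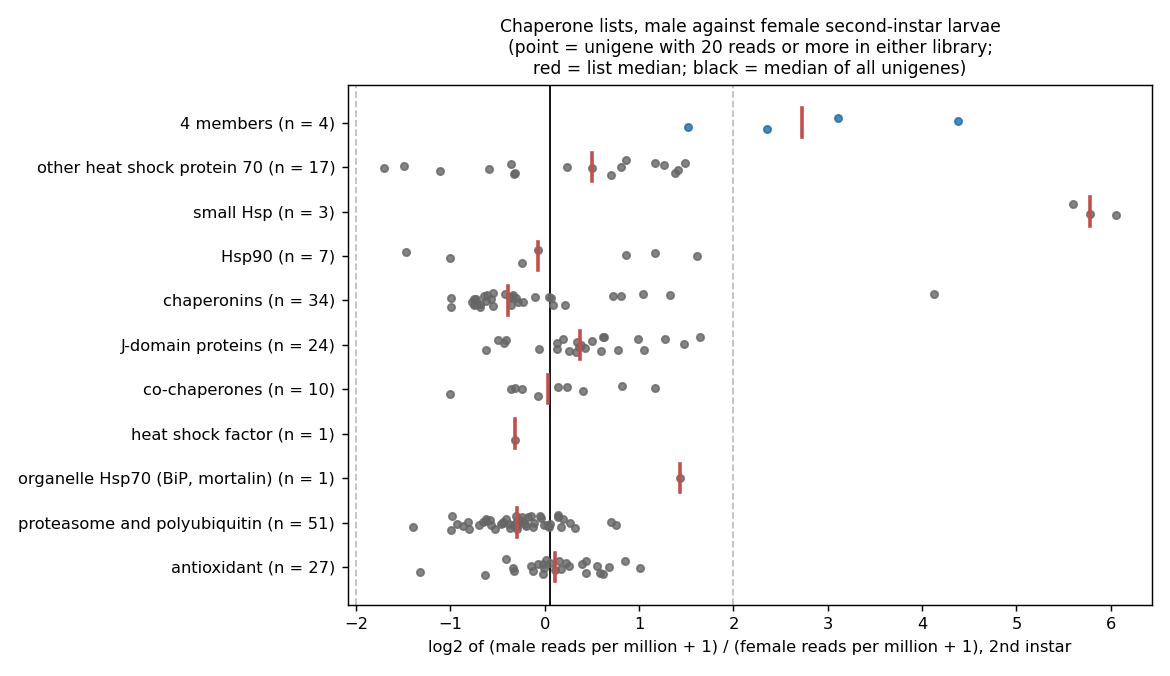
Log2 ratio of male over female second-instar larvae (CPM with 1 added on each side) for the 4 Hsp70 unigenes (blue) and for the unigenes of each chaperone or stress list with at least 20 reads in either library (grey); red ticks are list medians, the black line is the median of all unigenes and dashed lines mark 4-fold. The medians of the members (2.73) and of the 3 small heat shock proteins (5.78) lie to the right of those of the other lists. Single points overlap: Unigene122371_FOB (1.52) lies below the highest points of the Hsp90 (1.61) and J-domain (1.64) lists. In the other lists a single chaperonin unigene lies past 4-fold (4.13), above every member but Unigene45254_FOB.

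In first-instar larvae none of 147 measured list unigenes was at least 4-fold higher in males and 1 was lower, beside 0.766% and 2.79% of all unigenes, with a median of 0.16, which was -0.04 when scaled by the reads on unigenes with a protein match. In adults, 4 of the 136 measured in all 3 comparisons were higher in males against every female stage and 23 were lower, beside 9.34% and 7.8% of all unigenes. The 4 higher ones were all antioxidant unigenes. Of the lower ones, 10 were chaperonins, 6 proteasome and 5 antioxidant unigenes. The 3 small heat shock proteins were not past the rule against every female stage. Against early-stage females the median of the members was 3.08 and that over the lists -1.20, and with size factors they were 3.58 and -0.70.

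Among 12554 unigenes with a named match and at least 100 reads, those whose log2 level over the 8 libraries was most like each member were ranked by Pearson r. For Unigene45254_FOB these were a spectrin (Unigene116305_FOB, r 0.938, rho 0.738), a Dock1-like protein (Unigene121660_FOB, r 0.934, rho 0.929) and slit (Unigene140549_FOB, r 0.932, rho 0.905). For Unigene134666_FOB they were an 18 kDa subunit of NADH-ubiquinone oxidoreductase (Unigene43858_FOB, r 0.955, rho 0.881), zormin (Unigene148527_FOB, r 0.929, rho 0.881) and a ubiquitin ligase E3 alpha (Unigene148219_FOB, r 0.926, rho 0.643). The first for Unigene112925_FOB was another Hsp70 unigene, Unigene138045_FOB (r 0.959, rho 0.905), followed by the ubiquitin ligase (r 0.945, rho 0.643) and a sugar transporter (Unigene124327_FOB, r 0.938, rho 0.571). For Unigene122371_FOB they were Marf, a mitochondrial fusion protein in flies (Unigene146550_FOB, r 0.970, rho 0.905), an hnRNP (Unigene36736_FOB, r 0.965, rho 0.952) and the ubiquitin ligase again (r 0.957, rho 0.833). Without male second-instar larvae and male adults, the libraries farthest from the median of each member, r ranged between 0.220 for the ubiquitin ligase with Unigene134666_FOB and 0.920 for the hnRNP with Unigene122371_FOB. At an r of 0.95 or more there were 5 unigenes for Unigene45254_FOB, 12 for Unigene134666_FOB, 11 for Unigene112925_FOB and 17 for Unigene122371_FOB, out of 38708 compared with or without a named match. Those with a named match numbered 0, 2, 3 and 5 in the same order, counted with the descriptions left out above.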

How the data were processed

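RNA was measured by sequencing in 8 libraries, 1 per group. Per the labels' protocols, total RNA was extracted with TRIzol and made into libraries with standard Illumina reagents. Per the file headers, the deposited tables give the count of uniquely assigned reads per assembled unigene, with the library total in the header, RPKM, the best protein match, the length and the percent of each unigene covered by reads. Count, length and header total gave back the deposited RPKM. A unigene not listed was taken as 0 reads, which allows up to 3 reads. No aligner, assembler or strand setting is named in the sources used here. Reads of near-identical copies may be split or left out.

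The 4 members and all gene lists were chosen with earlier results of these data known. From the counts, CPM was computed over the header total (Python 3.11.15, pandas 2.3.3), with exact Poisson intervals for levels, exact conditional binomial intervals for ratios and Clopper-Pearson intervals for shares (scipy 1.17.1), all at 95%. No significance test was made, since each group has 1 library and the members were chosen with their levels known. The 4-fold rule asks for a log2 ratio of at least 2 in size with 1 CPM added and at least 20 reads in either library. Alternatives were TMM from edgeR 4.0.16, median-of-ratios size factors, the total over unigenes with a protein match, 5 or 0.5 CPM added, other read minimums, leaving out a member or a female stage, mean RPKM and arthropod matches alone.

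Named beside the members were the 5 other Hsp70 unigenes with most reads, up to 6 that were 4-fold apart at the second instar (there were none), the 2 with most reads and up to 2 per direction 4-fold apart of each list, and the 3 most alike to each member. The most alike were taken from unigenes with another match description than any member. Other names are given as chosen after their values were seen.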

Additional observations from a re-analysis of the deposited data

Results flagged for a closer look

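The sex difference of Unigene134666_FOB, and with it that of the summed reads, ran in opposite directions at different stages, and the difference between stages was not tested. Unigene134666_FOB had a male to female ratio of 0.406 in first-instar larvae but 8.83 in second-instar larvae, and of 11.3, 35.8 and 34.9 in male adults over early-, middle- and later-stage females. The summed reads of the 4 Hsp70 unigenes had a ratio of 0.686 in first-instar larvae, 9.82 in second-instar larvae and 8.26, 19.1 and 11.1 in male adults over the 3 female stages. Without Unigene134666_FOB the first-instar sum had a ratio of 0.806, with an interval of 0.604 to 1.07 that held 1. The adult comparisons share 1 male library.

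The step into the adult also ran in opposite directions in the sexes for Unigene122371_FOB. Male adults had 1.83 times the level of male second-instar larvae, and female early-stage adults had 0.603 times the level of female second-instar larvae. This difference between the sexes was not tested.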

How the results depend on the processing

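No paired analysis was possible because the labels give no replicate numbers for the groups to share and the results come from no test. Over scaling, added CPM, read minimum and list choice, 65 of the 70 values recomputed for the main results stayed within 1.5 times the count or within the interval, and none reversed. The summed second-instar ratio of male over female larvae, 9.82, was 11.9 as a mean of RPKM, 5.78 without Unigene45254_FOB, 11.4 without Unigene112925_FOB and 11.8 without Unigene122371_FOB, since the members' own ratios differ. The count of chaperone list unigenes 4-fold apart at the second instar, 4, was 8 with no minimum of reads, 5 of them higher in males and 3 lower. Of the ratios of single members under another scaling, 121 stayed within their interval and 11 moved out of it, all of them in comparisons with male adults. Depth limits the low levels: outside male second-instar larvae and male adults a member had 10 to 72 reads in a library.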

Other observations

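Read by its header total alone, the male adult library scaled differently from the rest: its effective total was 0.801 times the header total with TMM and 0.727 times with median-of-ratios size factors. The share of unigenes past the 4-fold rule that were higher in male adults was 35.6% against early-stage females, 46.4% against middle-stage and 45.0% against later-stage females. With median-of-ratios size factors it was 51.0%, 58.6% and 56.1%. Over male second-instar larvae the share higher in male adults was 36.7% by header total and 56.4% with size factors.

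A unigene matched to a rhodopsin-specific isomerase (Unigene15121_FOB), an eye protein, had 23, 4 and 419 reads in males in order of stage, against 12, 9, 11, 0 and 0 reads in females. A vitellogenin receptor unigene (Unigene157486_FOB), the receptor through which eggs take up yolk, had 2, 14 and 1 reads in males, against 2, 1, 2, 19 and 1087 reads in females in order of stage. The search for vitellogenin names found others without that pattern. Its most-read unigene, Unigene149785_FOB, had 168, 167 and 41 reads in males, against 150, 164, 154, 123 and 268 in females. Of 4 measured in all 3 adult comparisons, 0 passed the rule each time in either direction, beside 9.34% of all unigenes in the male and 7.8% in the female direction.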
